A study of Mus musculus with 12 samples.

Results

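The 7 genes described here act in hepatic glycogen turnover: the glycogen-targeting subunits of protein phosphatase 1 Ppp1r3g, Ppp1r3b and Ppp1r3c, and the enzymes Ugp2, Gys2, Gbe1 and Pygl. In mouse livers, high-fat feeding raised Gbe1, the branching enzyme, in both treatments, and Ppp1r3g was higher in penicillin than in control mice on the high-fat diet. The Gbe1 difference in control mice and the Ppp1r3g difference stood at the edge of the threshold. The Ppp1r3g call held in 6 of 14 other settings and in 2 of 12 fits that left out 1 mouse. The Gbe1 call in control mice held in 8 of 14 settings and in 3 of 12 such fits. The 7 genes are among the 18193 that had a probe set annotated to 1 gene symbol. All 7 passed the filter on low values, as did 13788 genes in all. Each gene is given by its probe set with the highest mean over the 12 arrays. That choice mattered for Ppp1r3c, with 2 probe sets, and Ugp2, with 5, and it used no difference between groups. The genes were brought together with earlier results of these arrays known, among them that Ppp1r3g had passed the threshold for penicillin on high-fat diet, so that difference is given as a description and as no independent support.

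RNA came from the whole liver of 12 male C57BL6J mice, collected at 30 weeks of age in every group, 1 array per mouse, in 4 groups of 3 that the labels call biological replicates. Penicillin high-fat mice drank water with 6.7 mg/L penicillin and were moved at 17 weeks of age from chow with 13.5% of energy as fat to a diet with 45%. Control high-fat mice made the same change of diet without antibiotic, penicillin chow mice drank penicillin and stayed on chow, and control chow mice had neither. The labels say nothing of feeding state, hour of collection or cage. Values are log2 expression from robust multi-array averaging (RMA), so 1 unit is a doubling, and differences are given with the standard error of the limma fit. A gene is called when its p, adjusted by Benjamini-Hochberg over the 13788 genes tested, is under 0.05.

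The liver stores glucose as glycogen after a meal and releases it between meals. UDP-glucose pyrophosphorylase, the product of Ugp2, makes the activated glucose that glycogen synthase, here the liver form Gys2, adds to the growing chain. Branching enzyme, from Gbe1, sets in the branch points, and liver glycogen phosphorylase, from Pygl, removes glucose units from the chain ends. Protein phosphatase 1 activates the synthase and inactivates the phosphorylase by removing phosphate, and the PPP1R3 subunits anchor it to the glycogen particle. Ppp1r3b encodes the subunit known as GL, through which active phosphorylase restrains the synthase phosphatase, Ppp1r3c encodes the subunit known as PTG (protein targeting to glycogen), and Ppp1r3g messenger RNA is known in mouse liver to vary with the fasting and feeding cycle.

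The liver label was matched by the hepatocyte markers: all 13 measured had a mean above the filter floor of log2 5.0, led by Alb at 15.01. Their score, the mean deviation from each gene's own mean over the arrays, stayed between -0.07 and 0.08 on every array. By group it was -0.07 to -0.01 in penicillin high-fat and 0 to 0.05 in control high-fat mice, which did not overlap. It was -0.07 to 0.02 in penicillin chow and -0.01 to 0.08 in control chow mice. Several lists of markers of other cell types were higher on high-fat diet. Macrophage markers, 12 of 12 measured, had scores of -0.16 to 0.50 in penicillin high-fat and 0.34 to 0.46 in control high-fat mice, against -0.85 to -0.23 in penicillin chow and -0.17 to -0.01 in control chow mice. Stellate markers, 8 of 8 measured, scored 0.05 to 0.45 in penicillin high-fat and -0.07 to 0.18 in control high-fat mice, against -0.34 to -0.22 in penicillin chow and -0.12 to -0.04 in control chow mice. Endothelial markers, 10 of 10 measured, scored 0.07 to 0.31 in penicillin high-fat and 0.18 to 0.22 in control high-fat mice, against -0.39 to -0.11 in penicillin chow and -0.14 to -0.01 in control chow mice. Of 4 adipocyte markers measured, Adipoq and Lep lay below the floor, at 3.33 and 4.22, Retn was tested without a call, and Fabp4, which macrophages and endothelial cells also express, rose with high-fat diet in penicillin mice by 1.35 ± 0.23 (adjusted p = 0.0056). Of the tested lymphocyte (7) and cholangiocyte (3) markers, 0 were called with diet in either treatment. Of all genes, 8.32% were called with diet in penicillin mice and 0.899% in control mice. The skeletal muscle score stood apart in penicillin high-fat 3, at 0.69, and control high-fat 3, at 0.38, against -0.19 to -0.02 on the other arrays. The 18S control signal was 11.50, 11.52 and 11.56 in penicillin chow 2, penicillin chow 3 and penicillin high-fat 2, against 12.65 to 13.85 on the other arrays. The clock score, genes of the Per and Dbp phase minus genes of the Bmal1 phase, was lowest in penicillin high-fat 1, at -1.60, against -0.76 to 0.79 on the others. In these bulk samples a change in the share of a cell type and a change in RNA per cell cannot be told apart.

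Ppp1r3g was the member with the widest range, at log2 8.39, 7.88 and 7.44 in penicillin high-fat 1, 2 and 3, against 5.44, 6.85 and 4.84 in control high-fat 1, 2 and 3. All 3 penicillin mice lay above all 3 controls, and control high-fat 2 was the nearest of them. In mice on chow it stood at 4.53, 4.71 and 4.58 with penicillin and at 4.40, 4.82 and 4.19 without. All 6 chow values and control high-fat 3 lay below the filter floor, so they cannot be told from background. The gene entered the test through 5 high-fat arrays alone, and its level on chow is at most a bound. The filter asked for 3 arrays above the floor, and of the control high-fat mice only replicates 1 and 2 exceeded it. Ppp1r3g therefore passed only with its penicillin high-fat values.

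On high-fat diet, penicillin mice exceeded control mice in Ppp1r3g by 2.20 ± 0.40, a 4.58-fold difference (95% interval of the log2 difference 1.31 to 3.08, limma adjusted p = 0.0498). Control high-fat 3 lay below the filter floor, so this size is not exact. Without that mouse the difference was 1.76 (limma adjusted p = 0.159). The filter admitted the gene only with its penicillin high-fat arrays, so this comparison too is a description and no test. The call stands at the edge of the threshold. It held in 6 of 14 other settings and in 2 of 12 fits that left out 1 mouse, those without penicillin chow 1 and without control high-fat 2, while the difference stayed positive in all of these, from 1.76 to 2.77. Without penicillin high-fat 1, the mouse with the low clock score, the adjusted p was 0.214, and with the clock score as a covariate the difference was 2.07 (adjusted p = 0.157). Within high-fat mice Ppp1r3g was highest in penicillin high-fat 1, whose score for fasting-induced genes, 0.83, was also the highest of the 12 arrays. That score was 0.27 and 0.43 in penicillin high-fat 2 and 3, and 0.40, 0.35 and 0 in control high-fat 1, 2 and 3. Among these mice its order differed from that of Ppp1r3g. The mice of high muscle score, penicillin high-fat 3 and control high-fat 3, were the lowest of their groups in Ppp1r3g, and without both the difference was 1.99 (adjusted p = 0.153), a setting chosen after the values were seen. Beyond these fits the part of the measures in the difference was not tested.

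**Figure D1:**
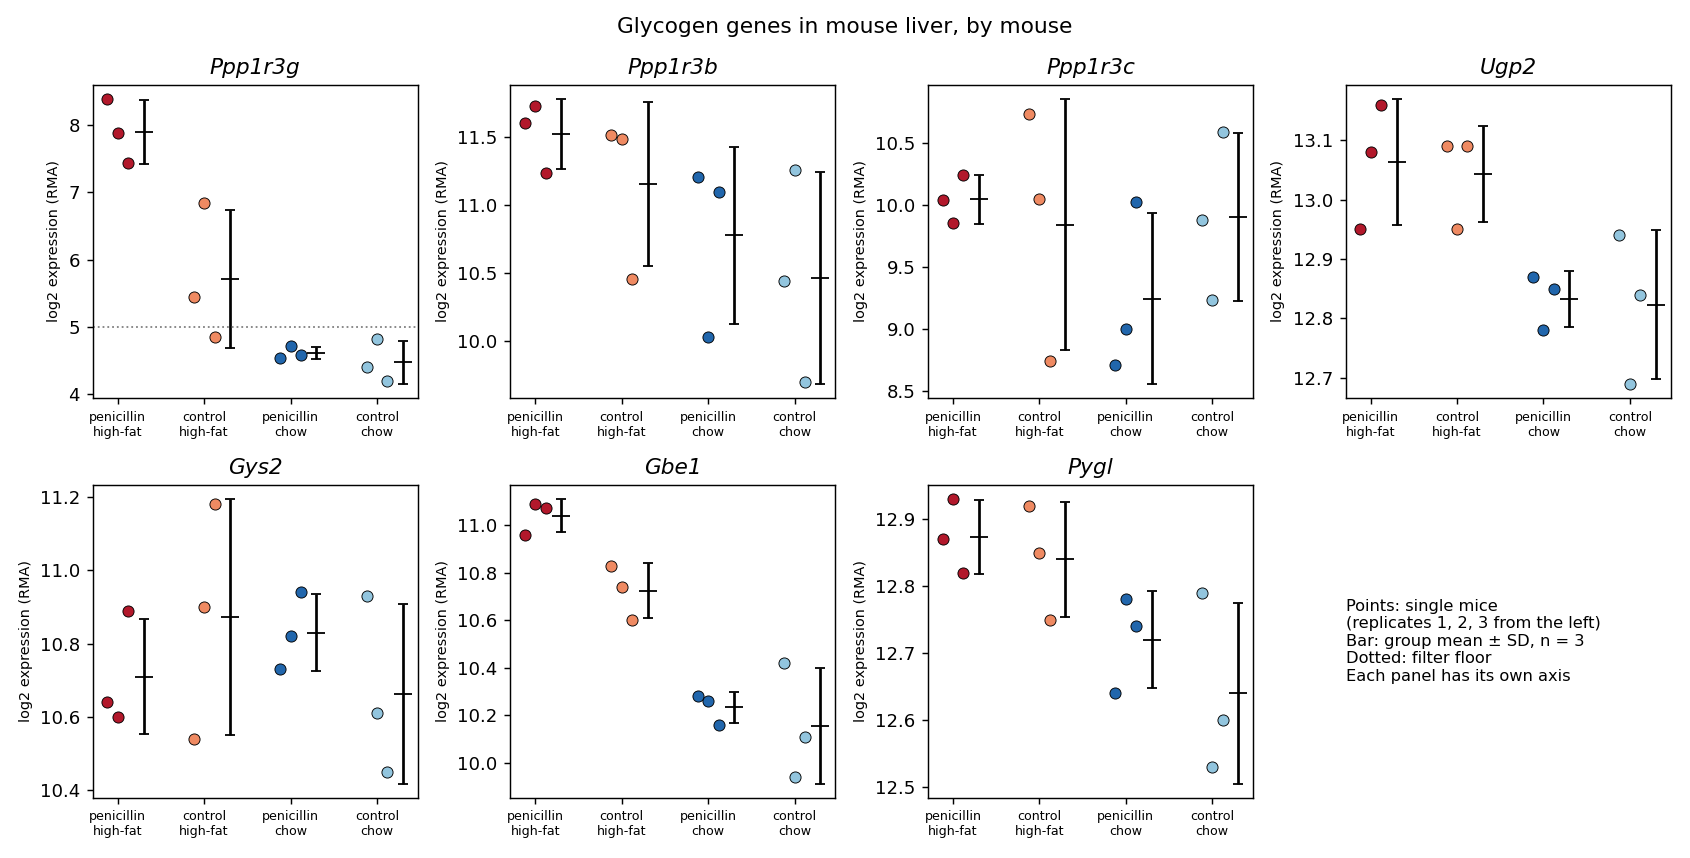
Log2 expression of the 7 glycogen genes (vertical axis, one scale per panel) in each of the 12 mice, grouped by treatment and diet, with group mean ± SD beside the points (n = 3). Ppp1r3g stands at 7.44 to 8.39 in penicillin high-fat mice, above all other mice, and its chow values lie below the dotted filter floor of 5.0; Gbe1 separates the diets.

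The diet comparison of Ppp1r3g is a description and not a test, because the filter admitted the gene through the high-fat arrays and every chow value lay below the floor. In penicillin mice the high-fat values of 7.44 to 8.39 stood clear of the chow values of 4.53 to 4.71. In control mice the high-fat values of 4.84 to 6.85 and the chow values of 4.19 to 4.82 did not overlap, but control high-fat 3 and control chow 2, the nearest of them, were both below the floor. The fitted differences, 3.30 ± 0.40 in penicillin mice and 1.24 ± 0.40 in control mice, set measured values against background and are no exact size of a change. The same holds for terms that include the chow groups: the penicillin difference on chow, 0.14 ± 0.40, was not measurable, and the interaction, the penicillin effect on high-fat diet minus that on chow, was fitted at 2.06 ± 0.57 and did not pass (adjusted p = 0.469). Without control high-fat 2 the interaction was 2.63 (adjusted p = 0.0483), and a dependence of the penicillin effect on diet was not shown. Penicillin averaged over the diets gave 1.17 ± 0.29 (adjusted p = 0.156), and 1.45 without control high-fat 2 (adjusted p = 0.0353).

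Promoter letters are shown for Ppp1r3g and Gbe1, the members with the clearest group differences, and for Ppp1r3c, which varied most between mice of a group. They are RefSeq sequences of build GRCm38.p6, the 250 bases before the start site that the promoter table gives, read 5′ to 3′ on the gene's strand, with matches in capitals. The windows are chr13:35967656-35967905 on the plus strand for Ppp1r3g, chr16:70313699-70313948 on the plus strand for Gbe1 and chr19:36736605-36736854 on the minus strand for Ppp1r3c. The Ppp1r3g window precedes an internal start, since the RefSeq span of that gene begins farther upstream, while the other windows adjoin the ends of their genes.
Ppp1r3g: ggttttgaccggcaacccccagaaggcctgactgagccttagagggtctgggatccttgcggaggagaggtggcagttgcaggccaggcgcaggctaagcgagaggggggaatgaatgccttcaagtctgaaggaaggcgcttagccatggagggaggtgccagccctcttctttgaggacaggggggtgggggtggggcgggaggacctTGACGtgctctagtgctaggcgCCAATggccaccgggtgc
Gbe1: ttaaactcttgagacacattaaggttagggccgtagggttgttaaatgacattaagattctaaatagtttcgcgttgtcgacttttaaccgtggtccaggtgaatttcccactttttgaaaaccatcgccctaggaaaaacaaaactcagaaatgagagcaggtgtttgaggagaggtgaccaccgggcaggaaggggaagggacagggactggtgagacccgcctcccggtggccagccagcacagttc
Ppp1r3c: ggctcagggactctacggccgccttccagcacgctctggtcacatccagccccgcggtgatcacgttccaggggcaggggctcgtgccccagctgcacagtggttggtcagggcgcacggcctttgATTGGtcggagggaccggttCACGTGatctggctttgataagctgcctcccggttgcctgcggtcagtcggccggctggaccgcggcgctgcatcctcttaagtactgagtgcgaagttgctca

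Both strands were searched for 4 motifs: the E-box CACGTG, bound by clock and USF proteins, the cyclic AMP response core TGACG, the forkhead motif GTAAACA and the CCAAT box CCAAT. Ppp1r3g held the TGACG core beginning 40 bases and a CCAAT box beginning 18 bases before the start. Ppp1r3c held an E-box beginning 104 bases before it and a CCAAT box on the other strand at 124. None of the 4 was found in the Gbe1 window. Of 32851 promoter windows of this length, 6.02% held the E-box, 17.8% TGACG, 3.17% the forkhead motif and 33.8% the CCAAT box. Windows were matched for 5 of the 7 members. Among the other matched members, Pygl held TGACG beginning 44 bases before its start and the first of 2 Ugp2 windows a CCAAT box at 49, both on the other strand. A match describes the letters and shows neither binding nor use.

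Ppp1r3b, the GL subunit, lay at 11.61, 11.73 and 11.24 in penicillin high-fat mice and at 11.52, 11.49 and 10.46 in control high-fat mice. In chow mice it stood at 11.21, 10.03 and 11.10 with penicillin and at 10.44, 11.26 and 9.70 without. Its group means fell in the order penicillin high-fat 11.52 ± 0.26, control high-fat 11.16 ± 0.60, penicillin chow 10.78 ± 0.65 and control chow 10.47 ± 0.78 (SD, n = 3 each). Neighbours in that order overlapped. The highest chow mouse, control chow 2, reached the level of the lowest penicillin high-fat mouse.

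No difference of Ppp1r3b was called. Penicillin minus control was 0.37 ± 0.41 on high-fat diet (95% interval -0.54 to 1.27) and 0.31 ± 0.41 on chow (-0.59 to 1.21). High-fat minus chow was 0.75 ± 0.41 in penicillin mice, where the groups did not overlap (adjusted p = 0.297), and 0.69 ± 0.41 in control mice (adjusted p = 0.461). Averaged over treatments the diet difference was 0.72 ± 0.29, which missed the threshold (adjusted p = 0.123). These intervals do not show that Ppp1r3b was equal in the groups.

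Ppp1r3c, the PTG subunit, showed no order by group. It stood at 10.04, 9.85 and 10.24 in penicillin high-fat mice and at 10.73, 10.05 and 8.74 in control high-fat mice, so the control range enclosed the penicillin range. In chow mice it lay at 8.71, 9.0 and 10.02 with penicillin and at 9.88, 9.23 and 10.59 without, and these overlapped too. Penicillin minus control was 0.20 ± 0.48 on high-fat diet and -0.66 ± 0.48 on chow, and high-fat minus chow was 0.80 ± 0.48 in penicillin and -0.06 ± 0.48 in control mice, with adjusted p from 0.341 to 0.974. Its second probe set gave 0.09, -0.46, 0.59 and 0.04 for the same differences.

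**Figure D2:**
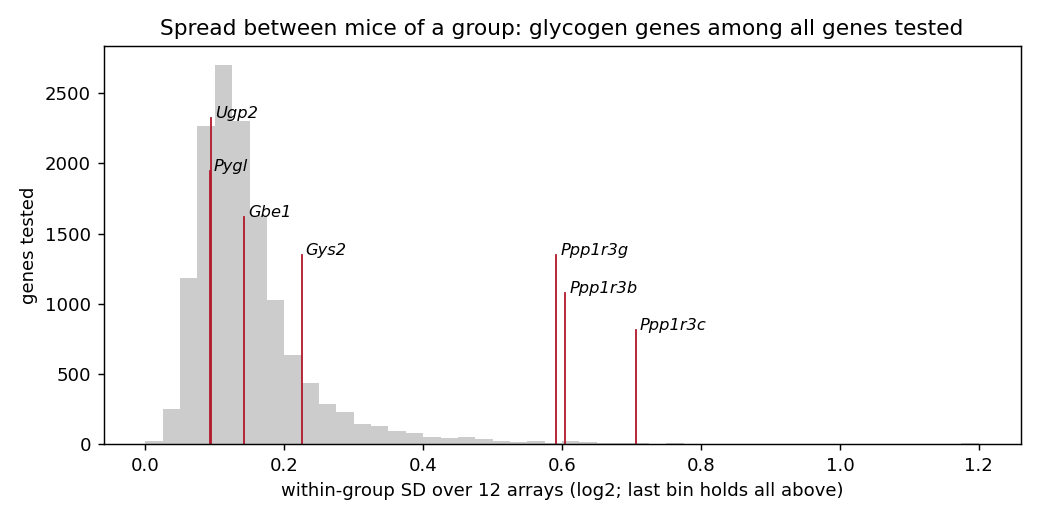
Histogram of the within-group SD (horizontal axis, log2 units) of the 13788 genes tested (vertical axis, genes), with the 7 glycogen genes marked by lines. The 3 targeting subunits stand at 0.59 to 0.71, far right of the median of 0.13, and Ugp2 and Pygl stand at 0.09.

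Pooled over the 4 groups, the targeting subunits varied more between mice of a group than the enzymes. The within-group SD was 0.71 for Ppp1r3c, 0.60 for Ppp1r3b and 0.59 for Ppp1r3g, at the 99.5th, 99.2nd and 99.1st percentile of all genes tested. It was 0.22 for Gys2 (87.1st percentile), 0.14 for Gbe1 (58.8th), 0.09 for Ugp2 (22.5th) and 0.09 for Pygl (21.3rd), beside a median of 0.13 over all genes tested. The pooled value hides groups that differ. For Ppp1r3g the SD was 0.47 in penicillin high-fat, 1.03 in control high-fat, 0.09 in penicillin chow and 0.32 in control chow mice, the chow values being at background. For Ppp1r3c it was 0.20 in penicillin high-fat mice, near the 0.16 of Gys2 there, and between 0.68 and 1.01 in the other groups.

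Gbe1, the branching enzyme, separated the diets completely. It stood at 10.96, 11.09 and 11.07 in penicillin high-fat mice and 10.83, 10.74 and 10.60 in control high-fat mice, against 10.28, 10.26 and 10.16 in penicillin chow mice and 10.42, 9.94 and 10.11 in control chow mice. Every high-fat mouse lay above every chow mouse, and the penicillin high-fat mice lay above the control high-fat mice. The 2 chow groups overlapped.

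High-fat feeding raised Gbe1 by 0.81 ± 0.11 in penicillin mice, 1.75-fold (95% interval 0.56 to 1.05; adjusted p = 0.00188), and by 0.56 ± 0.11 in control mice, 1.48-fold (0.32 to 0.81; adjusted p = 0.0449). Averaged over treatments it rose by 0.69 ± 0.08 (adjusted p = 5.10e-04). The call in penicillin mice held in 14 of 14 other settings and that of the average in 13 of 13, and both held in all 12 fits without 1 mouse. The call in control mice held in 8 of 14 settings and in 3 of 12 fits without 1 mouse, with the difference between 0.45 and 0.69. The penicillin difference on high-fat diet was 0.32 ± 0.11, without overlap but not called (adjusted p = 0.342), that on chow was 0.07 ± 0.11, and the interaction was 0.25 ± 0.16 (adjusted p = 0.880). Averaged over the diets, Gbe1 stood 0.20 ± 0.08 higher with penicillin, which was not called (adjusted p = 0.355).

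**Figure D3:**
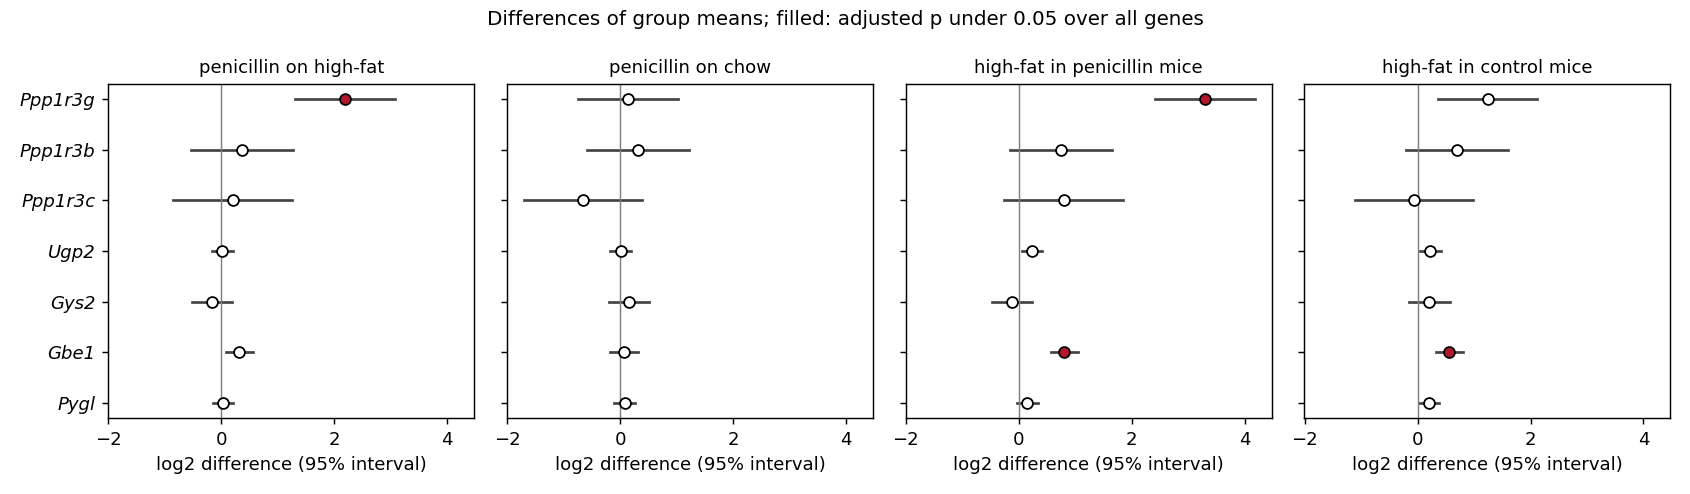
Log2 differences of group means (horizontal axis) with 95% intervals for the 7 genes in penicillin against control mice on each diet and high-fat against chow mice of each treatment. Filled points passed the threshold, with the Ppp1r3g diet difference set against chow values below the floor: Ppp1r3g at 2.20 for penicillin on high-fat diet and 3.30 for diet in penicillin mice, and Gbe1 at 0.81 and 0.56 for diet in penicillin and control mice.

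Ugp2, which makes UDP-glucose, was slightly higher on high-fat diet. It stood at 12.95, 13.08 and 13.16 in penicillin high-fat and 13.09, 12.95 and 13.09 in control high-fat mice, against 12.87, 12.78 and 12.85 in penicillin chow and 12.94, 12.69 and 12.84 in control chow mice. The diet groups of each treatment did not overlap, though in control mice the nearest values were 12.95 on high-fat diet and 12.94 on chow. High-fat minus chow was 0.23 ± 0.08 in penicillin mice (adjusted p = 0.115) and 0.22 ± 0.08 in control mice (adjusted p = 0.245), and averaged over treatments Ugp2 rose by 0.23 ± 0.06, 1.17-fold (adjusted p = 0.0268). That call was lost in 5 of 13 other settings, among them the mean of all 5 probe sets, which gave 0.18 (adjusted p = 0.0685), and in 5 of 12 fits without 1 mouse. The other 4 probe sets gave averaged differences of 0.10 to 0.23. Penicillin differences were 0.02 ± 0.08 on high-fat diet (95% interval -0.16 to 0.21) and 0.01 ± 0.08 on chow (-0.18 to 0.19).

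Gys2, the liver synthase, and Pygl, the liver phosphorylase, gave no call. Gys2 lay at 10.64, 10.60 and 10.89 in penicillin high-fat and 10.54, 10.90 and 11.18 in control high-fat mice, and at 10.73, 10.82 and 10.94 in penicillin chow and 10.93, 10.61 and 10.45 in control chow mice. All 4 groups overlapped. Its penicillin difference was -0.16 ± 0.16 on high-fat diet (95% interval -0.52 to 0.19) and 0.17 ± 0.16 on chow (-0.19 to 0.52), and its diet difference was -0.12 ± 0.16 in penicillin mice and 0.21 ± 0.16 in control mice (adjusted p of 0.696 and 0.584). The averaged diet difference was 0.05 ± 0.11.

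Pygl stood at 12.87, 12.93 and 12.82 in penicillin high-fat and 12.92, 12.85 and 12.75 in control high-fat mice, against 12.64, 12.78 and 12.74 in penicillin chow and 12.79, 12.53 and 12.60 in control chow mice. High-fat minus chow was 0.15 ± 0.08 in penicillin mice, where the groups did not overlap, and 0.20 ± 0.08 in control mice, where they did. Averaged over treatments it was 0.18 ± 0.06 (adjusted p = 0.0679), and it passed with eBayes trend and robust variance (adjusted p = 0.0365). Penicillin differences were 0.03 ± 0.08 on high-fat diet (95% interval -0.16 to 0.21) and 0.08 ± 0.08 on chow.

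Counted over the group, high-fat diet raised 2 of 7 members in penicillin mice, Ppp1r3g and Gbe1, where 8.32% of all genes tested were called and 6.43% were higher. Ppp1r3g entered through the filter on its high-fat arrays, so its diet call is no test. The list was chosen with earlier results of these arrays known, so the counts describe it and give no support. Diet raised 1 of 7 in control mice, Gbe1, where 0.899% were called and 0.653% were higher. Penicillin raised 1 of 7 on high-fat diet, Ppp1r3g, where 0.341% of all genes were called and 0.254% were higher. Ppp1r3g was known to pass this comparison when the genes were brought together, and the filter admitted it only with its penicillin high-fat arrays. That count therefore gives no support. On chow penicillin raised 0 of 7 in the limma fit, where 0.00725% of all genes were called. At an unadjusted p under 0.05 there were also 0 of 7 on chow, beside 7.62% of all genes. No member was lower past the threshold in any of these. At an unadjusted p under 0.05 there were 3 of 7 for diet in penicillin mice, beside 24.5% of all genes, 4 of 7 for diet in control mice, beside 15.1%, and 2 of 7 for penicillin on high-fat diet, beside 10.1%. Groups did not overlap for 5 of 7 members for diet in penicillin mice, all higher, beside 28.0% of all genes and 15.6% counted as higher. For diet in control mice the groups were apart for 3 of 7, all higher, beside 22.8% and 12.4%. For penicillin on high-fat diet they were apart for 2 of 7, both higher, beside 17.3% and 9.50%, and on chow for 0 of 7, beside 11.8%. Ppp1r3g is 1 of the members in every unadjusted and non-overlap count above 0, so those counts describe the list only.

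The median member difference was 0.75 for diet in penicillin mice, 0.22 for diet in control mice, 0.20 for penicillin on high-fat diet and 0.08 for penicillin on chow, and the median over all genes tested lay between -0.0069 and -0.00051. With so few members, the medians describe the list only. Averaged over treatments, the fit called 3 of 7 higher with diet, Gbe1 and Ugp2 and, with chow values below the floor, Ppp1r3g, where 14.5% of all genes were called and 9.63% were higher. The interaction called 0 of 7, with 1 member, Ppp1r3g, at an unadjusted p under 0.05, beside 6.11% of all genes, and 0.0435% of all genes called. Penicillin averaged over the diets called 0 of 7, with 2 at an unadjusted p under 0.05, Ppp1r3g and Gbe1, beside 11.9% of all genes, and 0.145% of all genes called. The diet and penicillin comparisons share mice, so their calls are not independent of each other.

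**Figure D4:**
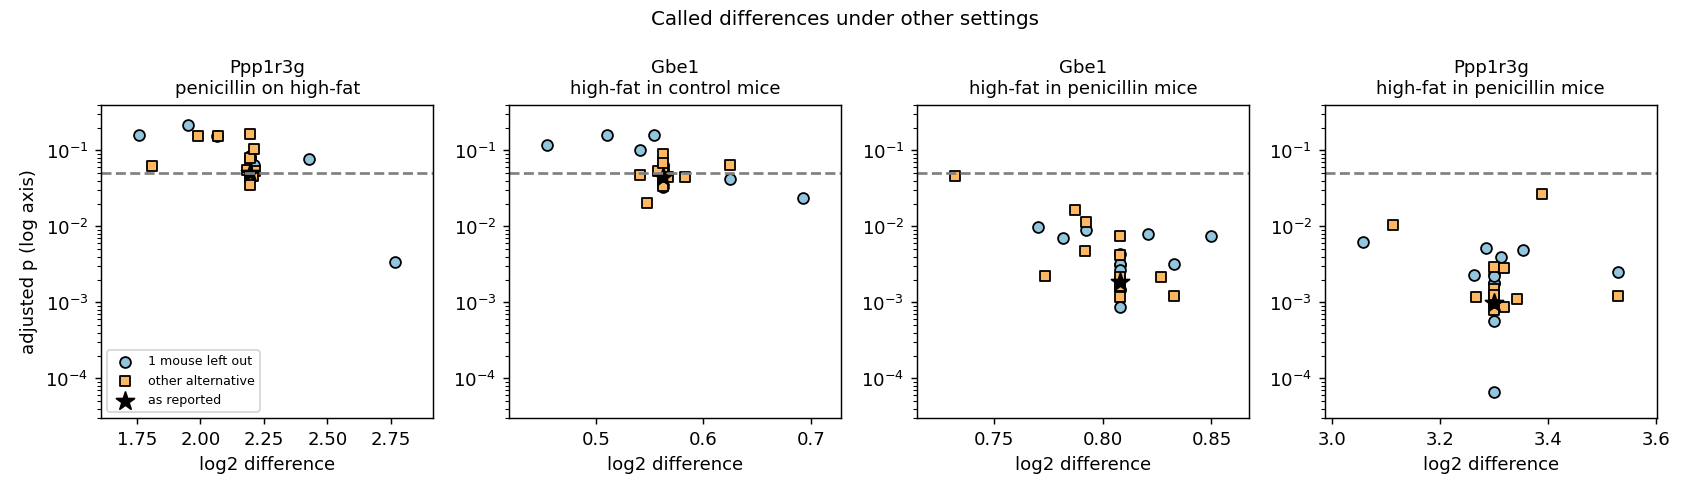
Adjusted p (vertical axis, logarithmic) against the log2 difference (horizontal axis) for 4 called differences, as reported (star), under other settings (squares) and without each mouse in turn (circles), with a dashed line at 0.05. Ppp1r3g for penicillin on high-fat diet spans 0.00343 to 0.214 across the line, and Gbe1 and Ppp1r3g for diet in penicillin mice stay below it in every fit shown, the Ppp1r3g values being set against chow levels below the filter floor.

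Other genes of glycogen metabolism gave no call between 2 groups. Of 34 listed in 6 role lists, 32 were measured and 29 tested, and 0 of 29 were called in each of the 4 comparisons of 2 groups. Of all genes, 0.341% were called for penicillin on high-fat diet and 0.00725% for penicillin on chow. For diet the share was 8.32% in penicillin mice and 0.899% in control mice. Where so few genes were called, 0 of 29 is no result about these genes. At an unadjusted p under 0.05 there were 2 for penicillin on high-fat diet (10.1% of all genes), 5 for penicillin on chow (7.62% of all genes), 3 for diet in penicillin mice (24.5%) and 3 for diet in control mice (15.1%). Groups did not overlap for 8 of 29 for penicillin on high-fat diet (17.3% of all genes), 7 for penicillin on chow (11.8%), 7 for diet in penicillin mice (28.0%) and 7 for diet in control mice (22.8%). Their differences went both ways, with medians between -0.06 and 0.06 and single values from -0.31 for Prkaa2 to 0.45 for Stbd1, both for diet in control mice. Of the other targeting subunits, Ppp1r3a, the muscle form, and Ppp1r3d stayed below the floor, at 4.0 and 4.55 over the 12 arrays, and Ppp1r3e and Ppp1r3f were tested without a call. The phosphatase catalytic subunits Ppp1ca, Ppp1cb and Ppp1cc gave no call either.

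Among the genes that act on glycogen breakdown, Stbd1, which tethers glycogen to membranes, stood 0.41 ± 0.15 above control in penicillin chow mice and 0.45 ± 0.15 above chow in control high-fat mice, without overlap and with adjusted p of 0.611 and 0.178. Phkg2, the liver catalytic subunit of phosphorylase kinase, stood at 8.17, 8.22 and 8.20 in penicillin high-fat mice, against 8.5, 8.44 and 8.42 in control high-fat mice, a difference of -0.25 ± 0.06 (adjusted p = 0.149). Phkb, another subunit, went the other way without overlap, at 8.88, 8.88 and 8.84 against 8.82, 8.77 and 8.6. Of the 4 tested subunits of this kinase, 2 were higher and 2 lower in that comparison. Prkaa1, a catalytic subunit of AMP-activated kinase, stood at 5.42, 5.23 and 5.55 in penicillin high-fat mice, against 4.78, 5.20 and 5.17 in control high-fat mice, 0.35 ± 0.12 higher (adjusted p = 0.34), and 0.29 ± 0.12 higher with penicillin on chow (adjusted p = 0.618). Prkaa2, the other catalytic subunit, stood 0.31 ± 0.17 higher in penicillin than in control high-fat mice, also without overlap (adjusted p = 0.593). Gsk3b, a kinase that inactivates the synthase, fell by 0.20 ± 0.06 with high-fat diet averaged over treatments (adjusted p = 0.0408). It was the 1 call among the 29 in that contrast, where 14.5% of all genes were called.

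In the comparison of diets in penicillin mice, 8.32% of all genes were called and 6.43% were higher, and the list counts stand beside that share. Of 8 tested genes that supply or release glucose-6-phosphate, 2 rose with high-fat diet in penicillin mice and 0 fell: Gckr, the regulatory protein of glucokinase, by 0.35 ± 0.09 (adjusted p = 0.0396) and Hk2, a hexokinase, by 0.36 ± 0.10 (adjusted p = 0.0493). Of 11 fasting-induced genes, 4 rose in the same comparison, Fgf21 by 2.53 ± 0.39, Pdk4 by 2.52 ± 0.41, Cyp4a14 by 1.49 ± 0.27 and Ppargc1a by 1.17 ± 0.21, with adjusted p from 0.00352 to 0.0077. Of 11 feeding-induced genes, 2 rose, Me1 by 0.93 ± 0.24 and Pklr by 0.60 ± 0.17. In the same comparison 9 of 12 macrophage, 3 of 8 stellate and 4 of 10 endothelial markers rose; the smallest p of each list belonged to Cd5l (0.95 ± 0.17), Col3a1 (1.57 ± 0.17) and Lyve1 (1.80 ± 0.34). For penicillin on high-fat diet, Ppp1r3g was called, as were 0.341% of all genes. In that comparison 0 of 11 fasting-induced, 0 of 11 feeding-induced and 0 of 12 macrophage genes were called, and macrophage scores overlapped. Groups did not overlap there for 4 of 11 fasting-induced genes, 2 of 11 feeding-induced genes, 1 of 12 macrophage and 3 of 8 stellate markers, beside 17.3% of all genes. The same held for 7 of 13 hepatocyte markers and 7 of 12 acute-phase genes, each list with differences both ways. The fasting-induced differences also went both ways, 5 positive and 6 negative. Without overlap, Irs2 (7.06, 7.06 and 7.28 against 7.74, 7.89 and 7.55) and Creb3l3 were lower in penicillin high-fat than in control high-fat mice. Pdk4, which restrains glucose oxidation, did not overlap either. It stood at 9.06, 7.10 and 7.61 in penicillin high-fat mice, against 6.72, 6.33 and 5.89 in control high-fat mice (1.61 ± 0.41, adjusted p = 0.147). The collagen Col3a1 stood at 9.88, 9.45 and 9.82 in penicillin high-fat mice, against 8.91, 8.77 and 8.82 in control high-fat mice (0.88 ± 0.17, adjusted p = 0.067). Of the 8 stellate markers, 6 were higher and 2 lower in this comparison, and 0 were called. The part of these genes in the members' differences was not tested.

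Each member with a range of at least 1 log2 unit was set against all other genes tested, by the root-mean-square difference between the deviations of both genes from their own means over the 12 arrays. Nearest to Ppp1r3g were Slc22a27, at 0.44 log2 units, Slc22a29, at 0.53, both of the organic anion transporter family, and Wfdc2, at 0.57, where the median gene stood at 1.47. Slc22a27 read 8.48, 8.09 and 8.16 in penicillin high-fat mice, against 6.29, 6.41 and 5.85 in control high-fat mice. On chow it read 4.43 to 5.13, below or near the filter floor. Its 3 control high-fat mice lay together between the penicillin high-fat mice and the chow mice.

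Nearest to Ppp1r3b were Tsc22d3, a glucocorticoid-induced gene, at 0.26, Frmd4b at 0.30 and the heat shock cochaperone Dnajb1 at 0.32, against a median of 0.65. Tsc22d3 was lowest in control chow 3, at 9.08, and penicillin chow 2, at 9.75, the mice that were also lowest in Ppp1r3b. Nearest to Ppp1r3c were Depp1 at 0.33, Ccn1, a matrix-associated protein, at 0.37 and the pseudokinase Trib3 at 0.43, against a median of 0.67. Nearest to Gbe1 were Khdrbs3 at 0.12, the apolipoprotein Apoc2 at 0.15 and Gsdme at 0.15, against a median of 0.41. These genes were picked from the whole table as the closest, so their closeness carries no test.

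**Figure D5:**
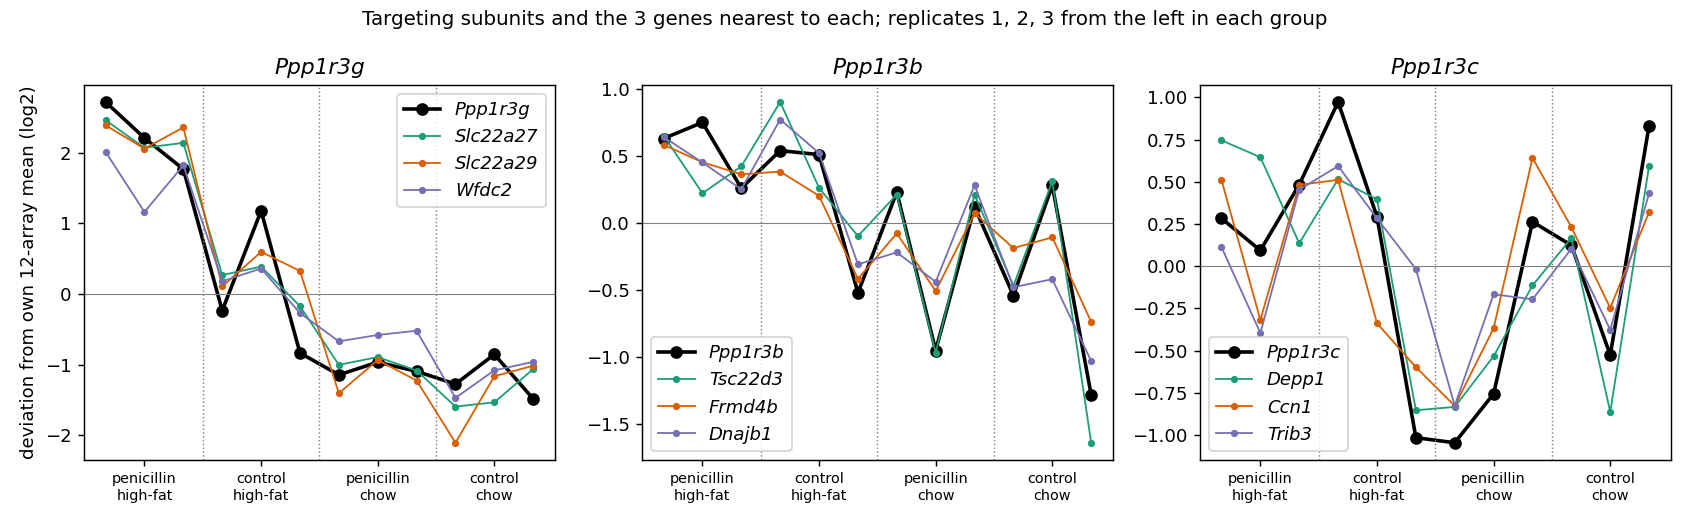
Deviation from the gene's own mean over 12 arrays (vertical axis, log2 units) for each targeting subunit (black) and the 3 genes nearest to it, across mice ordered by group (horizontal axis, replicates 1 to 3 in each). Ppp1r3g and its neighbours are highest in penicillin high-fat mice, and the neighbours step down again from control high-fat to chow. Ppp1r3g lies below the filter floor on chow and in control high-fat 3, and Slc22a27 lies below or near it on chow. Ppp1r3b and Ppp1r3c vary from mouse to mouse inside groups.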

How the data were processed

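Liver RNA of 12 mice was measured on Affymetrix arrays. The authors deposited log2 values of 45101 probe sets; the submitters' processing notes name RMA and affy, with no version given. RMA equalises arrays, so changes are relative to the bulk of genes, and low genes are compressed. Array medians ran from 5.52 to 5.59 and no arrays were identical. Detection calls and scan dates were not used here. GEO's platform annotation gave 34945 probe sets 1 symbol and 932 several, which were not used.

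A gene was tested if 3 or more arrays exceeded log2 5.0, which is the 40th percentile of the whole table, by limma 3.58.1 in R 4.3.3: 4 group means on 12 arrays, 8 residual degrees of freedom, eBayes, and Benjamini-Hochberg adjustment over 13788 genes, for 7 contrasts. Arrays give no read depth; their number limits precision, with a median standard error of 0.10 between groups. The p-values rest on the variation among 3 mice a group. The pipeline was tested on simulated data. The members, gene lists and alternatives were chosen with earlier results of these data known. The rule for named genes takes all members and up to 4 called genes per list and contrast, allows glycogen-list genes whose groups do not overlap, and adds the 3 nearest genes by root-mean-square difference. Alternatives covered the filter, probe set choice, normalization, array weights, eBayes options, arrays in the fit, a replicate block, covariates, the threshold, leaving out each array and, chosen after seeing the data, leaving out both arrays of high muscle score. Titles number the replicates 1 to 3 in each group, but same-numbered mice did not deviate together: correlations of their deviations ran from -0.23 to 0.17, and 3 of 18 were above 0.1.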

Additional observations from a re-analysis of the deposited data

How the results depend on the processing

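The count of members called for penicillin on high-fat diet, 1, was 0 with cyclic loess, array weights, eBayes with trend and robust options, a fit of the compared arrays alone, the 18S or clock covariate, and without the 3 arrays of low 18S signal or the 2 of high muscle score. The count for diet in control mice, 1, was 0 with the largest-variance probe set, only the arrays compared, the replicate block (70 genes called over all, against 124), the clock covariate, and without the 3 low-18S or the 2 high-muscle arrays. Leaving out 1 mouse gave 0 to 1 for each of these, 0 to 1 for the interaction and for averaged penicillin, 2 to 4 for averaged diet, 2 for diet in penicillin mice and 0 for penicillin on chow. The replicate block changed no other count of members; 2 of 12 mice correlated best with their own number.

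Uncalled differences changed sign as follows. Ugp2 gave -0.14 on chow and -0.0158 on high-fat diet for penicillin with the largest-variance probe set, and -0.03 on chow with the mean of probe sets. Ppp1r3c gave 0.11 for diet in control mice with array weights and -0.20 for penicillin on high-fat diet with the clock covariate. Gys2 gave 0.12 for diet in penicillin mice with the clock covariate and 0.0395 without the low-18S arrays, where Pygl gave -0.0021 and -0.0011 for penicillin on chow and high-fat diet. Without the 2 high-muscle arrays, penicillin on high-fat diet gave -0.45 for Ppp1r3c and -0.0051 for Ugp2, and diet in control mice gave 0.49 for Ppp1r3c. Without 1 mouse, penicillin on chow ranged from -0.0571 to 0.0703 for Ugp2, -0.0339 to 0.20 for Gbe1, -0.0748 to 0.71 for Ppp1r3b and -0.0053 to 0.31 for Ppp1r3g, penicillin on high-fat diet from -0.0266 to 0.0763 for Ugp2, -0.35 to 0.65 for Ppp1r3c and -0.0175 to 0.0694 for Pygl, and diet in control mice from -0.51 to 0.49 for Ppp1r3c. The cause was not tested.

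Over all genes, calls ranged across settings and left-out mice from 9 to 183 for penicillin on high-fat diet (47 as reported), 0 to 251 on chow (1), 21 to 571 for diet in control mice (124), 458 to 1933 in penicillin mice (1147), 0 to 24 for the interaction (6), 2 to 416 for averaged penicillin (20) and 1015 to 3050 for averaged diet (1997). Signal near background limits Ppp1r3g on chow.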
